A study of Mus musculus with 16 samples.

Results

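Expression of 8 genes that control cholesterol supply through the sterol regulatory element-binding proteins (SREBPs) and lipoprotein uptake was examined by bulk RNA-seq in 16 MC38 tumors. The genes were matched by symbol and comprise the transcription factors Srebf1 and Srebf2, the sterol sensor Scap, the retention proteins Insig1 and Insig2, the lipoprotein receptor Vldlr, the sterol carrier Stard4 and the ubiquitin ligase Mylip. All 8 were found among the 53465 genes of the count table, and all 8 were among the 18251 genes tested. MC38 is a mouse colon adenocarcinoma line, and every tumor grew under the skin of the flank of a female C57BL/6 mouse aged 6 to 8 weeks that was injected with MC38 cells. Mice were randomised on day 16 to control IgG or aPD-1, an antibody against the checkpoint receptor PD-1, and received 200 µg on days 16 and 20 before harvest on day 21. The groups were IgG control (n = 8), aPD-1 non-responder (n = 6) and aPD-1 responder (n = 2), where the authors assigned response by CD8 staining of the tumors themselves, so response was not randomised. Each tumor came from another mouse, and all tumors carry the same cell line in the same host strain.

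Cells sense cholesterol in the membrane of the endoplasmic reticulum. When sterols are low, Scap escorts the SREBP precursors to the Golgi, where proteases release the transcription factor domain. When sterols are high, Insig proteins hold Scap and its cargo back. SREBP2, encoded by Srebf2, mainly drives genes of cholesterol synthesis and uptake, and SREBP1, encoded by Srebf1, mainly drives genes of fatty acid synthesis. Insig1 and Stard4 are themselves SREBP targets. Mylip, also called IDOL, belongs to the opposite arm, in which the oxysterol-activated liver X receptors (LXRs) induce it and it marks lipoprotein receptors, Vldlr included, for degradation. RNA levels do not report cleavage of the SREBP precursors or degradation of receptor protein.

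Promoter sequences are shown for Insig1 and Mylip, the members whose RNA differed between groups below, and for Srebf2, the gene of the factor that acts on sterol elements. They come from RefSeq on GRCm38.p6 and show the plus strand, along which all 3 genes run, up to the base before the first annotated exon. The motifs searched were TCACNCC, the core of a sterol regulatory element, CCAAT, the box bound by NF-Y, and CACGTG, an E-box, each on both strands. Capitals mark their matches, and ATTGG is CCAAT on the other strand. The 3 sequences lie at chr5:28071162-28071362, chr15:82147019-82147180 and chr13:45389492-45389741.
Insig1: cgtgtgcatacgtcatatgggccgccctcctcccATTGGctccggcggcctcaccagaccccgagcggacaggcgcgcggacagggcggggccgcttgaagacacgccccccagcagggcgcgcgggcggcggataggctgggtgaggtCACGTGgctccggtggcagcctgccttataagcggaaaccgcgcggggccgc
Srebf2: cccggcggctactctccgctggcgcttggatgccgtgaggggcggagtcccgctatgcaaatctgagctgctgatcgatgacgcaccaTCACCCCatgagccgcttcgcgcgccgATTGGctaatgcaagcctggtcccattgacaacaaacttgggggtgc
Mylip: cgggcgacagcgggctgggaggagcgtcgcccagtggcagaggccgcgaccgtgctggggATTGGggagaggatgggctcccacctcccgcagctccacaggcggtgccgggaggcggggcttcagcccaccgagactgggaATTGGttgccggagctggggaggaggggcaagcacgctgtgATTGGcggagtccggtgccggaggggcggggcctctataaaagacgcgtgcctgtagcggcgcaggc
The Insig1 stretch held no TCACNCC, and it held ATTGG 167 bases and CACGTG 52 bases before the first exon. The Srebf2 stretch held TCACCCC 74 bases and ATTGG 47 bases before it. The Mylip stretch held no TCACNCC and 3 copies of ATTGG, at 190, 108 and 67 bases. Windows of 300 bases were given for 7 of the members, and over all 32851 such windows TCACNCC occurred in 15.6%, CCAAT in 37.4% and CACGTG in 7.2%. These matches describe the letters in the windows and were not tested for binding.

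Total counts ranged from 26603497 to 39948901 per tumor, and the 8 genes had at least 307 counts in every tumor, so counting error was small beside the spread between tumors. Mitochondrial counts made up 2.52% to 7.60% of the total and exceeded 5% in IgG control tumor 1 and non-responder tumors 9 and 14. Results of the 8 genes are therefore also given without these 3 tumors where a call turned on them. Leaving them out was decided after the data were seen and raised the counts over all genes in edgeR's test. At an adjusted p below 0.05, genes between responders and non-responders went from 3602 to 5803, of which 793 and 2626 were lower in responders. Between responders and IgG controls they went from 4174 to 7408. The responder libraries stood apart in their makeup. Summed B cell markers reached 1070 and 271.5 CPM (counts scaled to a common library size by the TMM method) in the 2 responders and at most 6.99 CPM in any other tumor, and T cell markers reached 199.1 and 191.6 CPM against at most 29.3 CPM. Adipocyte markers were at 552 and 101.4 CPM in responders and at most 27.9 CPM elsewhere. The tissue is labelled colorectal carcinoma, yet of 7 colon epithelium markers the intestinal genes Cdx2 and Vil1 had at most 11 counts and Krt20 at most 24 in any tumor. The general epithelial genes Epcam, Krt8 and Krt18 had at most 1.81 CPM outside the responders and reached 10.6, 31.9 and 33.4 CPM in them, and Cdh1 was at 3.75 CPM or more in every tumor. In bulk tissue, fewer cells of a type and less RNA per cell cannot be told apart.

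Per kilobase of exon, Insig1 was the highest of the 8 genes, with a median of 28.9 CPM per kb over the 16 tumors. Stard4 followed at 15.9 CPM per kb and lay below Insig1 in 16 of 16 tumors. Srebf2 at 13.5 and Srebf1 at 12.6 CPM per kb came next, and the ranges of Stard4, Srebf2 and Srebf1 overlapped widely, with each above the next in 12 of 16 tumors. Vldlr was at 9.47, Insig2 at 7.06, Scap at 5.43 and Mylip at 4.59 CPM per kb. The last 2 exchanged places between tumors, Scap being above Mylip in 10 of 16. Across all tumors Mylip varied most, with a coefficient of variation of 65.4%, followed by Stard4 with 34.3%, and Insig2 varied least, with 11.7%. The spread of Mylip came with the 2 responders, since within IgG controls its coefficient was 17.1%, below the 32.03% of Stard4, 24.4% of Insig1 and 23.8% of Vldlr.

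**Figure D1:**
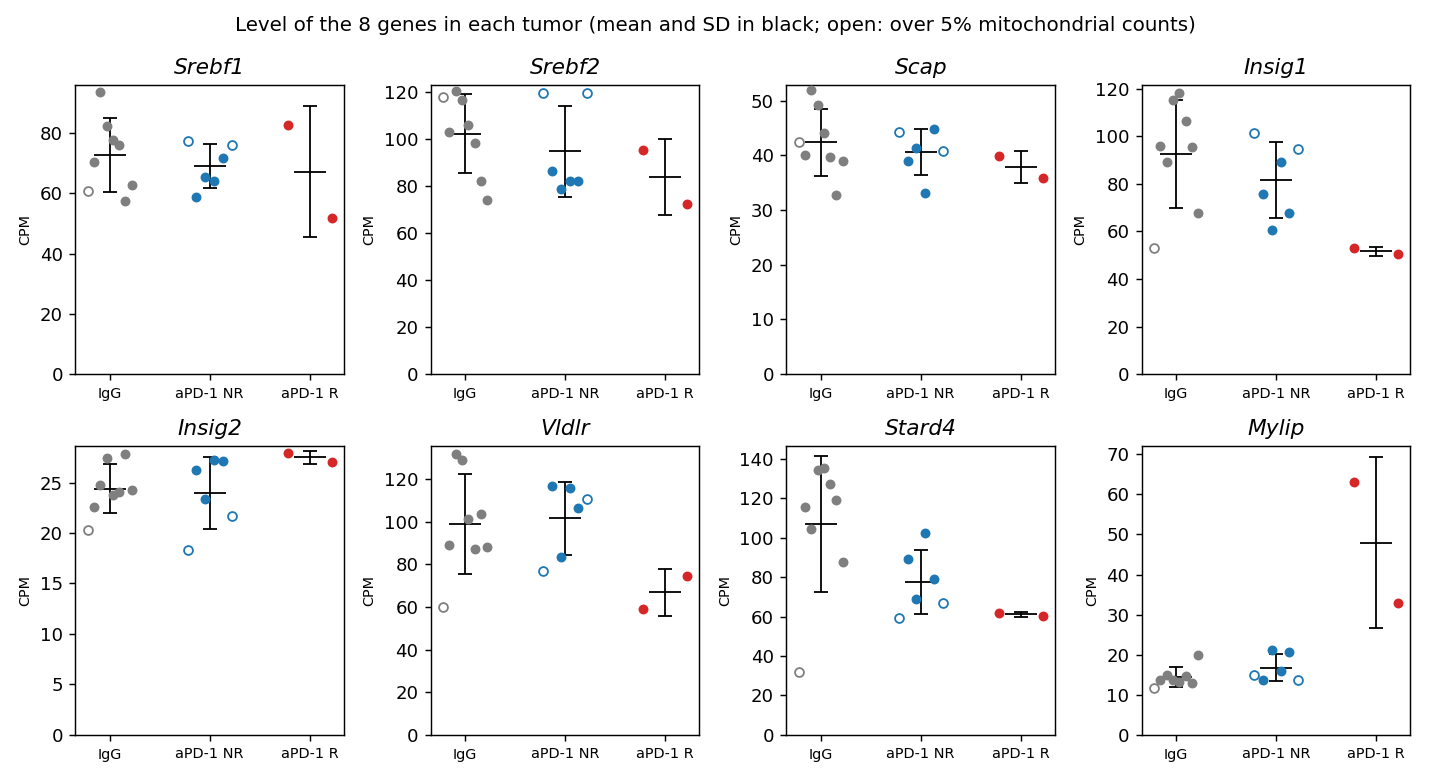
TMM-scaled CPM of each gene (vertical axes, linear from 0) in every tumor, by group, with the mean and SD as bars and open circles for the 3 tumors over 5% mitochondrial counts. The 2 responders lie above all other tumors for Mylip, and at 50.3 and 53.1 CPM at or near the bottom for Insig1, whereas the groups overlap for Srebf1, Srebf2 and Scap.

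The transcription factor genes differed little between groups. Srebf1 (chr11:60199089-60222581, minus strand) ranged from 57.4 to 93.6 CPM in IgG controls with a median of 73.2, from 58.8 to 77.5 CPM in non-responders with a median of 68.6, and stood at 82.6 and 51.8 CPM in the responders. The responders thus lay on either side of most other tumors. Its log2 fold change was -0.04 ± 0.19 (SE) between responders and non-responders and -0.11 ± 0.19 between responders and IgG controls, with adjusted p = 0.93 and 0.73 in edgeR's quasi-likelihood test. Gene-level counts add the long and short isoforms of SREBP1 together, and the 3′ end of Srebf1 overlaps that of Rai1 on the opposite strand.

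Srebf2 (chr15:82147181-82205379, plus strand) ranged from 74.3 to 120.4 CPM in IgG controls with a median of 104.5 and from 78.7 to 119.6 CPM in non-responders with a median of 84.4. The responders had 95.5 and 72.4 CPM, the latter the lowest of the 16 tumors. Non-responders fell into 2 levels, since tumors 9 and 14, both over 5% mitochondrial counts, had 119.6 CPM each and the other 4 had at most 86.6 CPM. The log2 fold changes were -0.18 ± 0.21 for responders against non-responders, -0.29 ± 0.21 against IgG controls and -0.11 ± 0.14 for non-responders against IgG controls, and none passed (edgeR, adjusted p = 0.64, 0.36 and 0.99).

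Scap (chr9:110333288-110384950, plus strand), the escort of both SREBP precursors, was the steadiest of the genes after Insig2. It ranged from 32.7 to 51.9 CPM in IgG controls with a median of 41.2 and from 33.2 to 44.8 CPM in non-responders with a median of 41.1, and responders had 39.97 and 35.83 CPM. Both responders lay within the range of either other group. The log2 fold change was -0.10 ± 0.15 between responders and non-responders (edgeR, adjusted p = 0.73).

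Insig1 (chr5:28071363-28078662, plus strand), the sterol-responsive retention protein, was low in both responders. They had 53.1 and 50.3 CPM, whereas non-responders ranged from 60.5 to 101.3 CPM with a median of 82.5 and IgG controls from 52.9 to 118.2 CPM with a median of 95.7. Responders were wholly below non-responders, which 13.2% of the genes tested were, and overlapped IgG controls, below which 9.7% of genes lay wholly, only through tumor 1 at 52.9 CPM. Insig1 was 1.79-fold lower in responders than in IgG controls (log2 fold change -0.84 ± 0.26, edgeR, adjusted p = 0.026). Against non-responders the log2 fold change was -0.66 ± 0.26 and did not pass (edgeR, adjusted p = 0.095). The call against IgG controls was lost without either responder (adjusted p = 0.16 and 0.12) and in a fit of those 2 groups alone (adjusted p = 0.051). The same kind of fit gained the call against non-responders (log2 fold change -0.70, adjusted p = 0.047). Without the 3 tumors over 5% mitochondrial counts Insig1 also passed against non-responders (log2 fold change -0.56, adjusted p = 0.041).

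Insig2 (chr1:121304353-121332589, minus strand), the second retention protein, did not follow Insig1. Its range was 20.3 to 27.8 CPM in IgG controls with a median of 24.2 and 18.3 to 27.2 CPM in non-responders with a median of 24.8, and the responders had 27.97 and 27.05 CPM. The responders sat at the upper end, and 1 of them was the highest of the 16 tumors. The log2 fold change was 0.20 ± 0.15 against non-responders and 0.17 ± 0.14 against IgG controls (edgeR, adjusted p = 0.41 and 0.44).

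Vldlr (chr19:27216484-27254231, plus strand), a receptor for triglyceride-rich lipoproteins, had 59.0 and 74.7 CPM in the responders. Non-responders ranged from 76.8 to 116.7 CPM with a median of 108.3, and IgG controls from 60.0 to 131.8 CPM with a median of 95.3. Both responders were below every non-responder, as for 13.2% of the genes tested, and 1 was the lowest of all tumors, just under IgG control tumor 1. The log2 fold changes of -0.60 ± 0.25 against non-responders and -0.56 ± 0.24 against IgG controls did not pass (edgeR, adjusted p = 0.10 and 0.11). Both passed, at -0.71 and -0.69 (adjusted p = 0.013 and 0.0078), once the 3 tumors over 5% mitochondrial counts were left out, and the first also passed in a fit of those 2 groups alone (-0.64, adjusted p = 0.041).

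Stard4 (chr18:33199355-33213862, minus strand), which carries cholesterol between membranes in the cytosol, showed the widest spread among IgG controls. Their values ran from 31.8 CPM in tumor 1 to 135.5 CPM with a median of 117.3, and the 7 controls other than tumor 1 had at least 87.6 CPM. Non-responders ranged from 59.2 to 102.3 CPM with a median of 74.0, and the responders had 62.0 and 60.3 CPM. Responders lay below all controls but tumor 1 and at the lower end of the non-responders. The log2 fold change was -0.81 ± 0.36 for responders and -0.46 ± 0.24 for non-responders against IgG controls, and neither passed (edgeR, adjusted p = 0.13 and 0.99). Without the 3 tumors over 5% mitochondrial counts, Stard4 was lower in responders than in both other groups. The adjusted p by edgeR was 0.00035 against IgG controls and 0.030 against non-responders, where the log2 fold change was -0.53. As given above, leaving out these tumors raised the passing counts over all genes as well.

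Mylip (chr13:45389742-45412022, plus strand), the LXR-induced ligase, had the largest difference of the 8 genes. The responders had 63.0 and 32.8 CPM, non-responders ranged from 13.7 to 21.1 CPM with a median of 15.5, and IgG controls from 11.7 to 19.9 CPM with a median of 13.7. Both responders were above all other tumors, and they differed from each other by 1.92-fold. Mylip was 2.87-fold higher in responders than in non-responders (log2 fold change 1.52 ± 0.22, edgeR, adjusted p = 9.13e-05) and 3.33-fold higher than in IgG controls (1.73 ± 0.21, adjusted p = 8.7e-06). Both calls held in every alternative fit and with any 1 tumor left out, where the log2 fold change against non-responders lay between 0.90 and 1.86. Responders were wholly above non-responders for 21.5% and wholly above IgG controls for 19.3% of the genes tested, so such a separation was common here. Markers of other cells moved with it: all 6 B cell markers, all 6 T cell markers and all 5 adipocyte markers were detected in both other groups too, but their summed levels were far higher in the responders, as given above. Macrophage markers summed to 1177 and 1293 CPM in responders, within or just above the 858.6 to 1282 CPM of non-responders and above the 762.5 to 1093 CPM of IgG controls. Single markers differed. Mrc1 had 126.5 and 206.2 CPM in responders and at most 94.5 CPM elsewhere, and Csf1r 190.1 and 204.0 CPM against at most 185.6 CPM. C1qa, C1qb, Cd68 and Adgre1 overlapped between responders and non-responders. The part of these cells in the Mylip result was not tested.

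Across the 8 genes, 1 passed between responders and non-responders (Mylip, higher) and 2 passed between responders and IgG controls (Mylip higher, Insig1 lower). In the same comparisons 19.7% (15.4% higher and 4.34% lower) and 22.9% (17.7% higher and 5.17% lower) of all genes tested passed, so these counts do not set the 8 genes apart from the background. Between non-responders and IgG controls 0 of the 8 passed by edgeR or DESeq2. The count under an unadjusted threshold of 0.05 was 0 by edgeR and 1 by DESeq2, where Stard4 lay just under it. Of all genes tested 0.0% passed there (0 of 18251 by edgeR, where 694 genes had an unadjusted p under 0.05 and DESeq2 passed 8). Among all aPD-1-treated tumors, with responders weighted 25% and non-responders 75%, Mylip alone of the 8 passed against IgG controls (log2 fold change 0.60 ± 0.15, edgeR, adjusted p = 0.039, n = 8 per arm), beside 2.44% of all genes, 2.4% higher and 0.0438% lower. That call was lost when the treated tumors were fitted as 1 group (0.78, edgeR, adjusted p = 0.31) and with each of 10 of the 16 tumors left out in turn. In the fit with treated tumors as 1 group, the filter on low counts was rerun and 0 of the genes it kept passed. With the 3 tumors over 5% mitochondrial counts left out, Insig1 and Stard4 passed as well, at log2 fold changes of -0.56 and -0.60 (adjusted p = 0.020 and 0.0083). Of all genes 980 passed in that fit, beside 446 in the main fit. The comparisons share tumors and are not independent of each other. Srebf2, Insig1 and Vldlr were among the genes the authors selected on spatial data of the same tumors, so their direction here is not independent evidence.

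**Figure D2:**
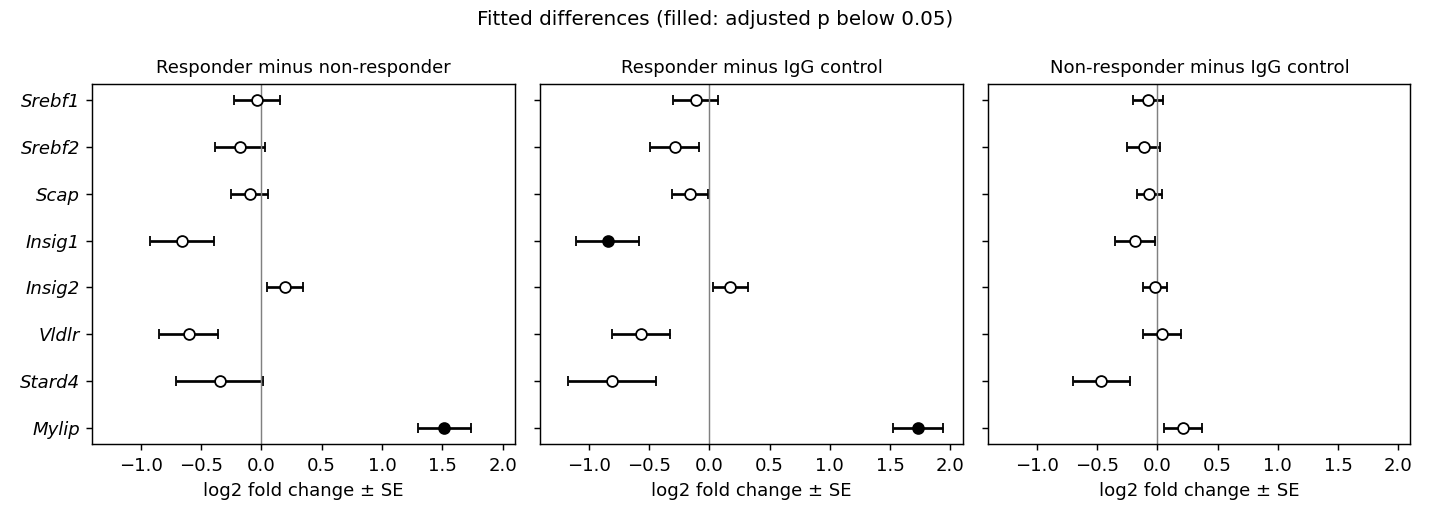
Fitted log2 fold change with its SE (horizontal axes) for the 8 genes in 3 comparisons, filled where the adjusted p was below 0.05. Mylip stands at 1.52 and 1.73 in the 2 comparisons of responders and Insig1 at -0.84 against IgG controls, and no gene is filled between non-responders and IgG controls.

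Ratios of 2 genes within a tumor do not depend on library scaling, and 3 were compared in 4 comparisons each by exact two-sided permutation tests. The ratio of Insig1 to Insig2 was 1.90 and 1.86 in the responders, 2.49 to 5.52 in non-responders and 2.599 to 4.97 in IgG controls. Responders were wholly below both groups. Of single genes, 13.2% lay wholly below non-responders and 9.7% wholly below IgG controls in the responders, and no such share was worked out for ratios. The log2 ratio differed by -0.98 against IgG controls and by -0.84 against non-responders, with exact p = 0.022, the smallest that 2 against 8 tumors allow, and exact p = 0.071. After adjustment over the 12 tests these were 0.089 and 0.17, so neither passed. Over all aPD-1-treated tumors the Insig1 to Insig2 ratio differed from IgG controls by -0.35 on the log2 scale (exact p = 0.15), and by -0.67 with the 3 tumors over 5% mitochondrial counts left out (exact p = 0.0035, adjusted 0.035). The log2 ratio of Stard4 to Mylip differed by -1.78 between responders and non-responders and by -2.37 between responders and IgG controls (adjusted exact p = 0.11 and 0.089), again with no overlap. Mylip alone was already wholly above both groups in the responders, so this separation is not separate evidence. Over all aPD-1-treated tumors that ratio differed from IgG controls by -1.03 (exact p = 0.021, adjusted 0.089), and by -1.35 without the 3 tumors over 5% mitochondrial counts (adjusted exact p = 0.035). The Srebf1 to Srebf2 ratio differed by at most 0.15 on the log2 scale in any comparison, with exact p of 0.36 or more.

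The genes around the 8 were read from 6 lists of pathway genes. Of the 23 genes that process SREBPs or degrade their partners, such as the site-1 and site-2 proteases Mbtps1 and Mbtps2, the COPII coat genes Sec23a and Sec24d and the ligase Rnf139, 0 passed in any comparison by edgeR, with at most 3 at an unadjusted p under 0.05. Their median log2 fold change was -0.05 for responders against non-responders and -0.12 against IgG controls, where medians over all genes were 0.02 and -0.02. Tmem97, a sterol-regulated membrane protein, came nearest at -0.88 ± 0.31 in responders against IgG controls (adjusted p = 0.054). In that comparison 12 of the 23 passed, 11 of them lower, when the 3 tumors over 5% mitochondrial counts were left out. Of all genes 7408 passed in that fit, beside 4174 of 18251 in the main fit. With DESeq2 2 of the 23 passed.

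Of the 19 cholesterol synthesis enzymes, targets of SREBP2, 6 passed lower in responders than in IgG controls and 0 higher, with a median log2 fold change of -0.66. Of all genes tested 5.17% passed lower and 17.7% higher there. Lss, which closes the sterol rings, fell from 75.3 ± 19.8 CPM (SD, n = 8) to 38.5 ± 2.67 CPM (SD, n = 2), which is -0.97 on the log2 scale. Cyp51, the lanosterol demethylase, changed by -1.22 and Sqle, the squalene epoxidase, by -1.11 on the log2 scale. Fdps and Fdft1, the farnesyl diphosphate and squalene synthases, changed by -1.26 and -0.93, and Mvk, the mevalonate kinase, by -0.88. The adjusted p of these 6 lay between 0.0080 and 0.020 in edgeR's test. All but Mvk belong to the genes the authors selected on the same tumors. The calls rested on few libraries, since 0 of the 19 passed without responder tumor 15, 3 without responder tumor 16 and 17 without IgG control tumor 1. Against non-responders 15 of the 19 were lower in responders, as were 8817 of all 18251 genes, with a median of -0.22 for the 19. Of the 19, 0 passed in the fit of all 16 tumors by edgeR (6 at an unadjusted p under 0.05). In an edgeR fit of the 2 groups alone 6 passed, and by DESeq2 3 passed, all lower. Non-responders were below IgG controls for 18 of the 19, and for 9348 of all 18251 genes, with a median of -0.39 for the 19. Of the 19, 0 passed by edgeR or DESeq2 (7 at an unadjusted p under 0.05). In the randomised comparison of all aPD-1-treated tumors with IgG controls the median was -0.49 beside -0.01 over all genes, and 0 of the 19 passed by edgeR and 4 by DESeq2, although 15 had an unadjusted p under 0.05. There, 17 passed, all lower, once IgG control tumor 1 was left out. With any 1 tumor left out, at most 1116 of all genes passed in that comparison.

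Among 13 fatty acid synthesis genes, the targets of SREBP1, members moved in both directions. Scd1, the stearoyl-CoA desaturase, rose from 180.2 ± 41.1 CPM in non-responders to 1162 ± 714 CPM in responders (log2 fold change 2.69, edgeR, adjusted p = 1.84e-05), and Gpam and Acss2 were higher too, by 1.56 and 0.80. Fads1, a fatty acid desaturase, was lower by 0.76 on the log2 scale. Thus 3 of the 13 passed higher and 1 lower, beside 15.4% and 4.34% of all genes tested. Against IgG controls Scd1 was higher, and Fads1 and Scd2 were lower, the last by 1.01. Of all genes tested 17.7% passed higher and 5.17% lower there. Fasn, the fatty acid synthase, stood at 240 CPM in responders and 215 CPM in non-responders and did not pass. Between non-responders and IgG controls all 13 were lower in non-responders, as were 9348 of all 18251 genes, with a median of -0.38 for the 13. Of the 13, 0 passed by edgeR or DESeq2 (4 at an unadjusted p under 0.05). Scd1 and Gpam are abundant in fat, and the adipocyte markers Adipoq and Plin1 had medians of 109.8 and 73.2 CPM in responders against 1.09 and 0.63 CPM in non-responders. Their part in these differences was not tested.

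The 15 other lipoprotein receptors, scavenger receptors and adaptors included Cd36, the fatty acid translocase, and Sorl1, a sorting receptor, which rose in responders against non-responders by 3.47 and 3.11 on the log2 scale (edgeR, adjusted p = 0.00070 and 1.14e-06). In that comparison 2 of the 15 passed higher and 1 lower, beside 15.4% and 4.34% of all genes tested. Cd36 went from 16.4 ± 8.76 CPM (SD, n = 6) to 183 ± 131 CPM (SD, n = 2). Lrp8, a receptor of the same family as Vldlr and likewise a substrate of the Mylip ligase, was lower by 0.55 against non-responders and by 0.62 against IgG controls (adjusted p = 0.036 and 0.015). The first call was lost in a fit of those 2 groups alone, without either responder, and without IgG control tumor 3 or non-responder tumor 9 or 14, and the second without responder tumor 15. Summed adipocyte markers were at most 17.6 CPM and summed endothelial markers at most 159.9 CPM in non-responders, against 101.4 and 187.4 CPM or more in responders. B cell and T cell markers were far higher in responders as well, as given above. The part of these cells in the Cd36 and Sorl1 results was not tested.

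The 12 LXR genes, LXR targets and Mylip partners held 4 genes that rose in responders against both other groups by edgeR. Of all genes, 15.4% passed higher against non-responders and 17.7% against IgG controls. None of the 12 fell in the edgeR fit, whereas 1 was lower against IgG controls by DESeq2 and with median-of-ratios size factors. Nr1h3, which encodes LXR alpha, went from 3.95 ± 1.98 CPM in non-responders to 16.4 ± 6.02 CPM in responders (log2 fold change 2.05, edgeR, adjusted p = 0.00065). The cholesterol exporters Abca1 and Abcg1 rose by 1.52 and 1.60 and the LXR partner receptor Rxra by 0.83. Adipocyte, B cell and T cell markers and the macrophage marker Mrc1 were also higher in responders, as given above. The macrophage markers C1qa, C1qb, Cd68 and Adgre1 overlapped between responders and non-responders. The part of these cells in the results of the 4 genes was not tested. Nr1h2, which encodes the widely expressed LXR beta, stood at 72.6 CPM in responders and 77.6 CPM in non-responders, and the ubiquitin-conjugating enzyme gene Ube2d1, which partners Mylip, at 32.8 and 33.0 CPM. When responder tumor 15 was left out, 0 of the 12 passed against non-responders. The 12 sterol transfer and storage genes held 3 that rose in responders against non-responders, namely Gramd1c, Gramd1b and Stard5, by 2.69, 0.76 and 0.50, which is 3 of 12 beside the 15.4% of all genes that passed higher. Gramd1c was at 0.32 CPM in non-responders and 2.12 CPM in responders. Against IgG controls these 3 and Osbpl9 rose, and Gramd1b passed between all aPD-1-treated tumors and IgG controls as well, with overlapping ranges (log2 fold change 0.48, adjusted p = 0.029). That call was lost when the treated tumors were fitted as 1 group and with each of 11 of the 16 tumors left out in turn. In this list 1 to 3 genes passed against non-responders when a tumor was left out.

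**Figure D3:**
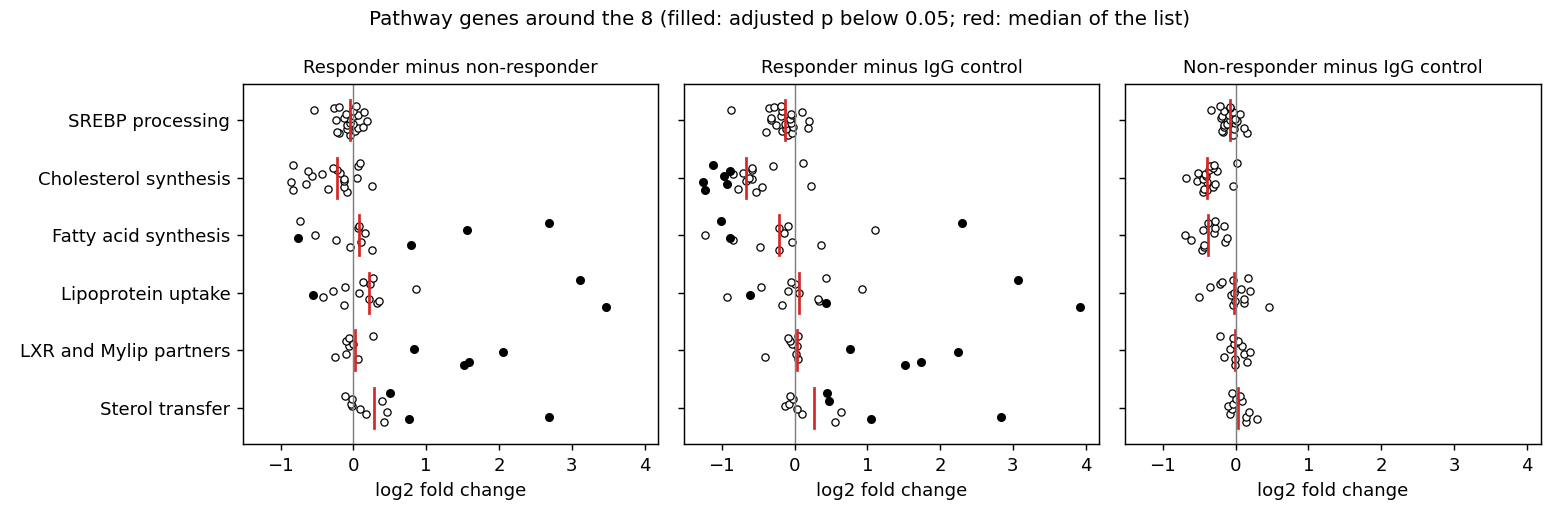
Log2 fold change (horizontal axes) of each gene in the 6 pathway lists, filled where the adjusted p was below 0.05, with the median of each list as a red line. Cholesterol synthesis lies to the left of 0 in the comparisons with IgG controls, with medians of -0.66 and -0.39, and the filled points of the LXR and sterol transfer lists lie to the right in both comparisons of responders.

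To follow the genes tumor by tumor, each was set against an SREBP2 enzyme score, the mean log2 CPM of the 19 enzymes, over the 14 IgG control and non-responder tumors, since the responders stood apart. The score ran from 4.39 in IgG control tumor 1 to 5.84 in the controls and from 4.97 to 5.33 in non-responders, and was 4.84 and 4.83 in the responders. Stard4 went with the score most closely, with Pearson's r = 0.96 and Spearman's rho = 0.94 (permutation test, p = 1e-05, the smallest that 100000 permutations can give, and adjusted p = 8e-05 over the 8 genes, for both). Within IgG controls r was 0.97 and rho 0.905. Within the 6 non-responders r was 0.83 and rho 0.71 (unadjusted exact permutation p = 0.035 and 0.14). Without the 2 tumors farthest from the median score r was 0.92. Insig1 followed with r = 0.86 and rho = 0.78 (permutation test, adjusted p = 0.00024 and 0.0056), at r = 0.97 within IgG controls and 0.40 within non-responders, where it was not detectable (exact permutation p = 0.43, n = 6). Without the 2 farthest tumors its r was 0.74.

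Vldlr had r = 0.66 and rho = 0.58 (permutation test, adjusted p = 0.028 and 0.088), but r was 0.25 without the 2 farthest tumors, of which IgG control tumor 1 was one, and the relation over the 14 tumors rested on those tumors. Within IgG controls, which include tumor 1, r was 0.82 and rho 0.57 (unadjusted exact permutation p = 0.013 and 0.15). Within the 6 non-responders r was 0.75 and rho 0.89 (unadjusted exact permutation p = 0.085 and 0.033). Srebf2 itself showed no detectable relation to the enzymes it is known to control (r = 0.09, rho = 0.19, permutation p = 0.77 and 0.51). Without the 3 tumors over 5% mitochondrial counts, in which Srebf2 was high beside a low or middling score, r was 0.81 (adjusted permutation p = 0.0083, n = 11). Mylip likewise changed from r = -0.17 (rho = -0.30) to r = -0.83 without them (adjusted permutation p = 0.0046, n = 11). Its r was already -0.65 without the 2 farthest tumors, IgG control tumors 1 and 4 (unadjusted permutation p = 0.024). Within IgG controls r was 0.10 and within non-responders -0.51. Srebf1, Scap and Insig2 had r of 0.47, 0.09 and 0.50 (rho = 0.46, 0.07 and 0.52), none of which passed. Within IgG controls these r were 0.58, 0.16 and 0.71, and within the 6 non-responders -0.45, -0.84 and 0.51. Among these, only Scap in non-responders had an unadjusted exact permutation p under 0.05 (p = 0.046).

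**Figure D4:**
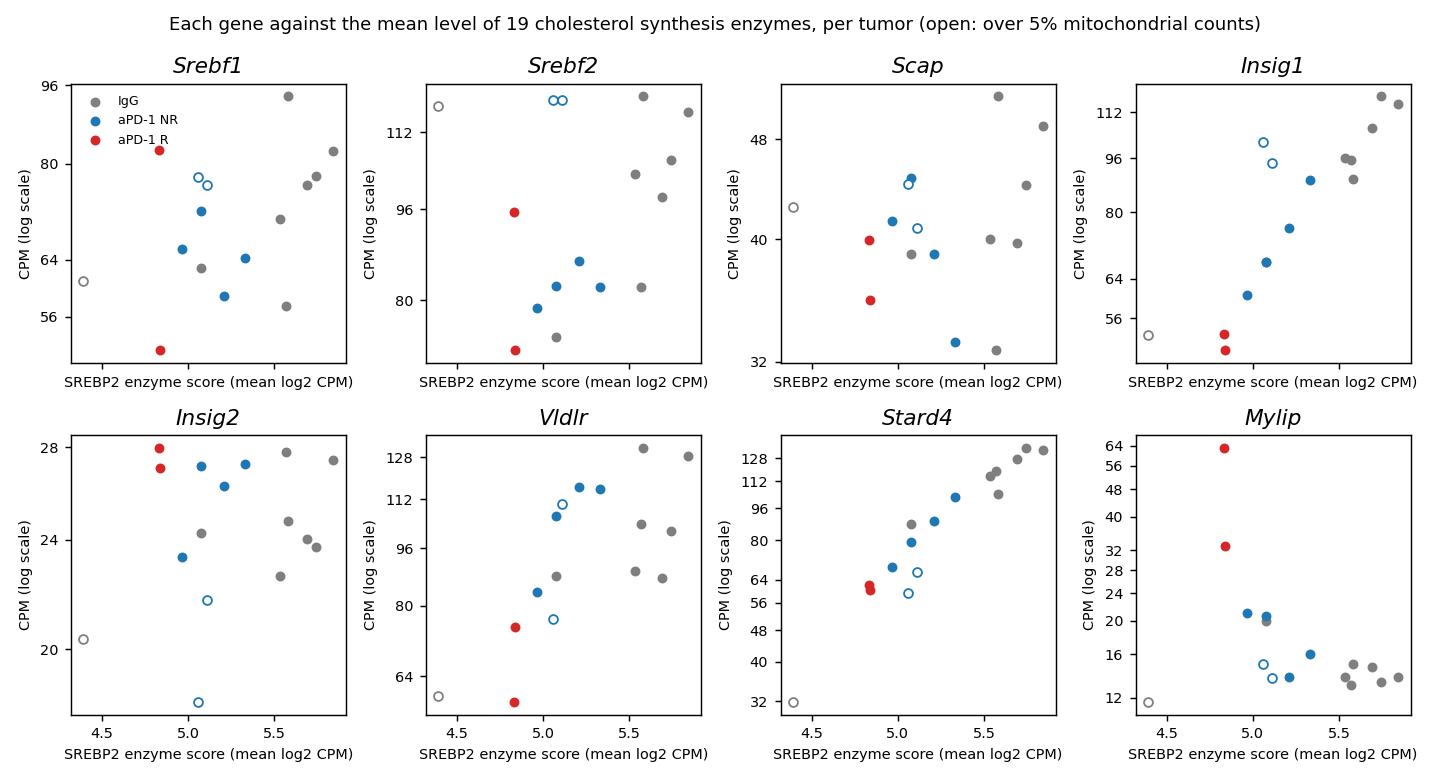
CPM of each gene (vertical axes, log scale) against the SREBP2 enzyme score (horizontal axes, mean log2 CPM of 19 enzymes) in each tumor, coloured by group, with open circles for tumors over 5% mitochondrial counts. Stard4 rises along a line (r = 0.96 over the 14 grey and blue tumors), and for Srebf2 the 3 open circles lie above the trend of the others.

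Among the 28 pairs of the 8 genes, 3 passed over the 14 tumors by Pearson's r. Srebf1 and Scap had r = 0.79 and rho = 0.79 (permutation test, adjusted p = 0.017 for r over 28 pairs), with r = 0.60 without the 2 tumors farthest from the median. Insig1 and Stard4 had r = 0.73 and rho = 0.71 (adjusted permutation p = 0.035), with r = 0.93 within IgG controls, -0.18 within non-responders and 0.47 without the 2 farthest tumors. Its rho did not pass (adjusted permutation p = 0.093). Insig2 and Vldlr had r = 0.71 and rho = 0.68 (adjusted permutation p = 0.041), with r = 0.80 and 0.76 within the 2 groups and 0.49 without the 2 farthest tumors, and its rho did not pass either (adjusted permutation p = 0.094). With the 3 tumors over 5% mitochondrial counts left out the last did not pass (r = 0.66, adjusted permutation p = 0.11, n = 11), and Mylip was then inversely related to both Insig1 (r = -0.84) and Stard4 (r = -0.84).

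For each gene, the genes most like it in log2 CPM over the same 14 tumors were sought, as a description, among the 12021 tested genes whose mean count over the tumors was 100 or more. Srebf1 was most like Fasn and Sipa1l3 (r = 0.90 each) and then Fam53c (r = 0.89). For Srebf2, Lpin1 ranked first (r = 0.96) and Gdf11 also stood among the top 3 (r = 0.89). Stard4 was most like the enzyme gene Idi1 (r = 0.99) and the zinc transporter gene Slc39a10 (r = 0.99), the closest of the likenesses given here. Insig1 was most like Gm47015 (r = 0.95), the enzyme gene Sqle (r = 0.92) and Slc2a6 (r = 0.91). Scap was most like Plcg2, Arhgef7 and Polr2a (r = 0.94, 0.93 and 0.92), and Insig2 most like Stam, Zfp655 and Fbxl5 (r = 0.96, 0.96 and 0.95). Vldlr was most like Ero1l (r = 0.96), an oxidase gene of the endoplasmic reticulum, Gpr137b-ps (r = 0.93) and Strbp (r = 0.92). Mylip was most like Vsir, Samhd1 and Itgal (r = 0.89, 0.89 and 0.88), of which Itgal encodes a leukocyte integrin chain. Each point here is a whole-tumor library, in which all genes share the same depth and cell makeup.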

How the data were processed

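Bulk poly(A) RNA-seq with a strand-specific kit and paired reads of 150 bases was measured in 16 tumors. The authors aligned reads with STAR 2.6 to GRCm38 and deposited RSEM 1.3.0 expected counts per gene, without normalization; the strand setting of the counting is not given in the sources used here. Expected counts divide reads shared by several genes, and 7.83% of the deposited values were not whole. They were rounded here, and 92 spike-in rows (at most 185 counts in a tumor) were left out. GENCODE release 21 matched 53360 of 53465 genes. No pair of the 16 tumors agreed within sampling noise (chi-square of at least 16.5 per degree of freedom in all 120 pairs). Total counts were 26603497 to 39948901 per tumor.

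Tests used R 4.3.3 and edgeR 4.0.16 (TMM, filterByExpr, robust quasi-likelihood, 1 fit of 16 tumors, Benjamini-Hochberg over 18251 genes, adjusted p below 0.05, no fold limit). The authors' DESeq2 was an alternative (1.42.0). CPM is TMM-scaled, and log2 CPM used a prior count of 2. Correlations used 100000 permutations. The steps were tested on simulated counts. The other alternatives were median-of-ratios size factors, other filters on low counts, 2-group fits, a prior count of 0.5, all 16 tumors, leaving out each tumor and, added after seeing the data, a mitochondrial covariate and leaving out the tumors over 5% mitochondrial counts.

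The genes named were the 8 members, genes of 6 pathway lists that passed (at most 6 of smallest p per list and comparison), the 3 genes most like each member, and marker genes of 9 lists. A few further list genes are named for their roles and were chosen after their values were seen. Members and lists were chosen with earlier results of these data known. Results for some single genes covered by the rule are not reported here. Summed skeletal muscle markers were at most 65.8 CPM except in IgG control tumor 6 (1847 CPM). Those of keratinocytes reached 48.6 CPM in non-responders and 9.79 CPM in responders, of endothelium 170 CPM in IgG controls and 338.5 CPM in responders, of fibroblasts 2328 and 2904 CPM, and of colon epithelium 9.06 and 86.4 CPM. Spatial data were not used here.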

Additional observations from a re-analysis of the deposited data

Results flagged for a closer look

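Among the 8 IgG control tumors, tumor 1 stood far from the others for Stard4, with a log2 CPM of 5.0 and a gap to its nearest neighbour of 0.699 of the whole range, where 0.526 is the critical value. The same tumor had the lowest log2 ratio of Srebf1 to Srebf2, at -0.95, with a gap of 0.565 of the range. It held the highest mitochondrial share of the 16 tumors (7.60%) and the lowest SREBP2 enzyme score (4.39). In all, 22 groups of values were examined in this way, and chance marks about 1 in 20 groups.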

How the results depend on the processing

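No paired analysis was possible because the tumors are numbered through all groups and no number is shared. R:NR stands for responders against non-responders, and R:IgG, NR:IgG and aPD-1:IgG for responders, non-responders and all treated tumors against IgG controls. The numbers are those of genes that passed, and the lists are SREBP processing, synthesis enzymes, fatty acid synthesis, uptake, LXR and sterol transfer. The Mylip calls in R:NR and R:IgG were never lost.

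With DESeq2, R:NR enzymes were 3, NR:IgG genes 8, R:IgG processing 2, and in aPD-1:IgG genes were 863, enzymes 4, fatty acid synthesis 1 and uptake 1. With median-of-ratios size factors R:IgG processing was 1 and the correlated pairs were 7, as they were over all 16 tumors. With no filter R:IgG sterol transfer was 2 and the aPD-1:IgG members 0. With only the groups compared, R:NR members were 3 and enzymes 6, R:IgG members 1, and aPD-1:IgG genes, members and sterol transfer 0 each.

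With the mitochondrial covariate, R:NR genes were 5436, members 2, processing 3, enzymes 5 and sterol transfer 5, NR:IgG genes were 1, R:IgG genes 6462, members 4, processing 5, enzymes 10 and fatty acid synthesis 7, and aPD-1:IgG genes 914, enzymes 1, uptake 1, LXR 1 and sterol transfer 2. Without the 3 tumors over 5% mitochondrial counts, R:NR genes were 5803, members 4, processing 6 and enzymes 5, NR:IgG genes were 1, R:IgG genes 7408, members 4, processing 12, enzymes 17, fatty acid synthesis 7 and uptake 7, and aPD-1:IgG genes 980, members 3, processing 1, enzymes 16, fatty acid synthesis 6, uptake 2, LXR 1 and sterol transfer 2. Ratios passing were then 2 and correlated pairs 5. The r of Stard4 with Mylip went from 0.0072, which is near 0 and had rho = -0.23, to -0.844. The cause was not tested.

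Leaving out 1 tumor, R:NR gave 1029 to 5050 genes, 1 to 3 members, 0 to 1 processing, 0 to 6 enzyme, 2 to 5 fatty acid synthesis, 1 to 3 uptake, 0 to 4 LXR and 1 to 3 sterol transfer genes, NR:IgG 0 to 7 genes, R:IgG 1401 to 5684 genes, 1 to 4 members, 0 to 4 processing, 0 to 17 enzyme, 2 to 7 fatty acid synthesis, 2 to 6 uptake, 2 to 5 LXR and 2 to 5 sterol transfer genes, aPD-1:IgG 207 to 1116 genes, 0 to 2 members, 0 to 1 processing, 0 to 17 enzyme, 0 to 5 fatty acid synthesis, 0 to 2 uptake, 0 to 1 LXR and 0 to 1 sterol transfer genes, and 0 to 1 ratios passed. The lows of genes came without responder tumor 15 and the highs of members and enzymes without IgG control tumor 1. With a responder left out, the other was assumed to vary like the other groups. Of all alternative values, 646 counts stayed within 1.5 times and 118 did not. The 2 responders, 1 cell line and bulk tissue limit every comparison of response.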
